A study of Mus musculus with 4 samples.

Results

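The solute carrier (Slc) genes encode membrane transporters and are named by a family number and a member number. The genes described here are those whose symbol has that form and which had at least 1 listed N6-methyladenosine (m6A) site in each of the 4 deposited site tables. This gave 159 of the 235 Slc genes listed in any table, among 12520 genes listed in all 4 tables. Solute carriers move amino acids, sugars, metals, ions, vitamins and metabolites across the plasma membrane and the membranes of mitochondria and other organelles. In the retina, glucose and lactate carriers supply neural cells with fuel, and amino acid carriers supply growing progenitors. m6A is placed on mRNA mainly by the METTL3 and METTL14 complex, largely near stop codons and in long exons, and it affects the stability, splicing and translation of mRNA.

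The data are GLORI profiles of polyA RNA from day 6 mouse retinal organoids. In GLORI, unmethylated adenosine is deaminated and read as G, while m6A is still read as A, so the level of a site is the percentage of its A plus G reads that are A. The source was an Rx:GFP line with FKBP12F36V-HA inserted at the C-terminal end of the endogenous Mettl3 gene, and all groups carry this allele. The degron lets the small molecule dTAG13 send the tagged protein for degradation. The untreated group (0 h, n = 2) received no dTAG13 and the dTAG13 group (n = 2) received 125 nM for 8 h. The genotype fields name Mettl3, Mettl4, Mettl5 and Mettl6 in turn, whereas the series title names METTL3 for all. The degron was taken to be on METTL3, which was not tested, and the RNA data do not measure METTL3 protein. Mettl3 itself had a gene coverage of 60.7 and 59.4 untreated and 64.4 and 61.8 after dTAG13. Nothing in the labels says whether the 2 replicates were separate cultures, so p-values measure only the spread between these libraries, which may be technical. The organoids are mixtures, so fewer cells of a type and less RNA per cell cannot be told apart.

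A site is listed in a table only where it has at least 15 reads, at least 5 A reads and a level of at least 10%. No listed site had an adjusted p-value of the authors above 0.00401. Absence from a table thus covers positions without m6A, positions outside these limits and positions without reads. Gene coverage below is the signal per gene that the authors deposited, which is not scaled to library depth. The listed sites of the Slc genes had a median of 93 and 95 reads without dTAG13 and of 86 and 115 with it. Over all genes the summed coverage ratio of dTAG13 to untreated was 0.846. All 11 retinal progenitor markers on the list used were in all 4 tables. So were 5 of 5 pluripotency markers, 2 of 4 neuron markers, 2 of 4 pigment epithelium markers and 1 of 4 endoderm markers, and none of 3 mesoderm markers was in any table. The summed coverage of the progenitor markers was 5633 and 6704 untreated and 3824 and 5609 after dTAG13. That of the pluripotency markers was 918 and 937 untreated and 658 and 866 after dTAG13. The part of cell makeup in the results below was not tested.

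Fewer sites were listed in Slc genes with dTAG13. The 159 genes held 3075 and 3265 listed sites untreated and 2115 and 2295 after dTAG13. The dTAG13 totals were both lower than the untreated totals. The means were 3170 ± 134 (SD, n = 2) and 2205 ± 127 (SD, n = 2), a ratio of 0.696, against 0.719 for all 12520 genes. By exact two-sided permutation p was 0.333, and a design of 2 against 2 cannot go lower. The median Slc gene had 15 and 15 listed sites untreated and 9 and 10 after dTAG13.

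Gene coverage overlapped between the groups. Summed over the Slc genes it was 24003 and 25408 untreated and 18206 and 25340 after dTAG13, so that the second dTAG13 library lay within the untreated range. Listed sites per 100 units of coverage were 12.8 and 12.9 untreated and 11.6 and 9.06 after dTAG13, and these groups did not overlap. The ratio of this density was 0.806 in Slc genes and 0.867 in all genes. In the 64 Slc genes whose coverage was within 1.5-fold between libraries, the untreated libraries listed 1328 and 1382 sites and the dTAG13 libraries 882 and 959, a ratio of 0.679. Over all genes, the 3697 within the same limit gave 0.695. The conversion rate of the median Slc gene, the deposited proportion of adenosines read as G, was 96.2% and 96.4% untreated and 97.0% and 97.0% after dTAG13. This rate was higher in both dTAG13 libraries, where fewer sites were listed, and its part in the number of sites was not tested.

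Gene by gene, 128 Slc genes had fewer listed sites on average with dTAG13, 26 had more and 5 had equal numbers. The median ratio was 0.675, against 0.714 over all genes. In 81 Slc genes (50.9%) the higher dTAG13 count was under the lower untreated count, and the same held for 44.6% of all genes. In 7 Slc genes (4.40%) the order was the opposite, against 4.53% of all genes. These shares are descriptions of the family beside all genes, and the difference between them was not tested.

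The edgeR quasi-likelihood test on the number of listed sites called 0 of 148 tested Slc genes at an adjusted p below 0.05. It called 0% of the 11484 genes tested. At an unadjusted p under 0.05, 34 Slc genes were lower and 1 was higher, where 21.6% of all genes tested were lower and 0.496% higher. The smallest adjusted p of an Slc gene was 0.160. DESeq2 also called 0 Slc genes, and edgeR's likelihood ratio test, added after seeing the data, called 25 lower, where it called 13.3% of all genes lower.

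The genes with the most listed sites were led by amino acid carriers. Slc38a2, a sodium-coupled neutral amino acid transporter, had 82 and 68 listed sites untreated and 78 and 61 after dTAG13. Its groups overlapped. Slc38a1, a related glutamine carrier, had 83 and 80 sites untreated and 57 and 57 after dTAG13, with no overlap. Slc7a6, which exchanges cationic for neutral amino acids, had 69 and 61 sites untreated and 28 and 38 after dTAG13, a ratio of 0.508 that did not pass the edgeR test (adjusted p = 0.160). The groups of Slc7a6 were apart all the same. Slc7a5, the large neutral amino acid transporter, had 60 and 43 sites untreated and 47 and 31 after dTAG13, and these overlapped. Slc38a4, a carrier of neutral and cationic amino acids, had 53 and 57 untreated and 20 and 43 after dTAG13, both below.

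The other genes with many sites carry nucleotides, ions, lactate and metals. Slc25a36, a mitochondrial pyrimidine nucleotide carrier, had 67 and 74 listed sites untreated and 39 and 58 after dTAG13. Slc4a7, a sodium bicarbonate cotransporter, had 69 and 60 untreated and 42 and 45 after dTAG13. In both genes the dTAG13 libraries were the lower ones. Slc16a1, the monocarboxylate transporter MCT1, had 54 and 57 untreated and 44 and 55 after dTAG13, and the groups overlapped. Slc31a1, the high-affinity copper importer, had 57 and 51 untreated and 44 and 48 after dTAG13, with no overlap. Slc39a10, a zinc importer, had 41 and 62 untreated and 41 and 42 after dTAG13, and here 1 untreated library was as low as the dTAG13 libraries.

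**Figure D1:**
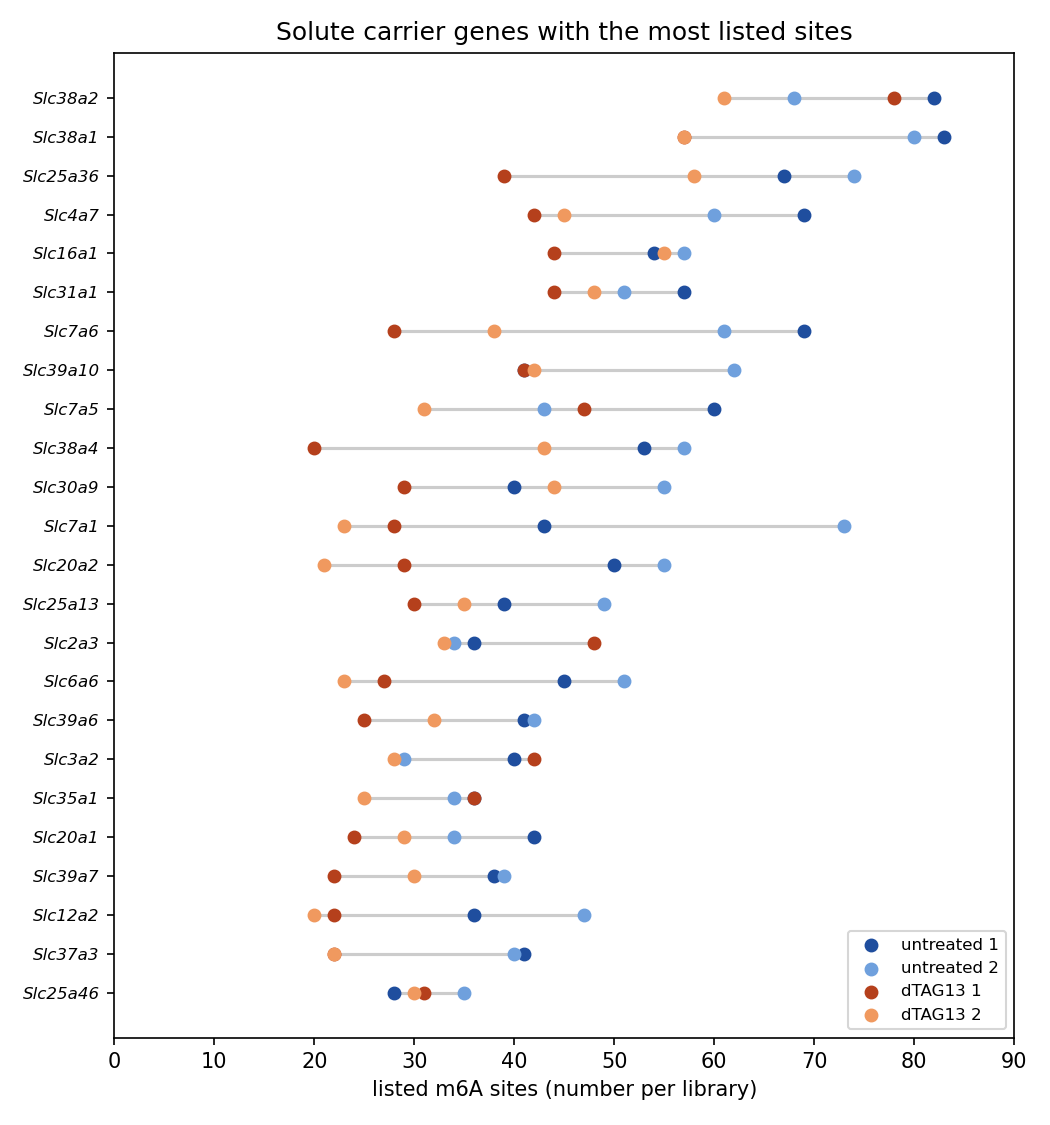
Number of listed m6A sites per library (x axis) in the 24 solute carrier genes with the most listed sites on average (y axis); each point is 1 library, blue for untreated and orange to red for dTAG13, and the grey line spans the 4 libraries. The dTAG13 points of Slc7a6 (28 and 38) lie well to the left of its untreated points (69 and 61), whereas those of Slc38a2 overlap.

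Some Slc genes had far fewer listed sites with dTAG13 than without it. Slc5a3, the sodium/myo-inositol cotransporter, had 34 and 37 listed sites untreated and 9 and 13 after dTAG13, and its log2 fold change of -1.68 had the smallest unadjusted p of the family (edgeR adjusted p = 0.160). Its coverage was 64.4 and 82.0 untreated and 65.9 and 101.2 after dTAG13, so the groups overlapped in coverage but not in sites. With gene coverage as an offset, edgeR called Slc5a3 lower (adjusted p = 0.0203) and also Slc25a44, a mitochondrial carrier linked to branched-chain amino acids (adjusted p = 0.0347). Slc25a44 had 15 and 20 sites untreated and 6 and 5 after dTAG13, while its coverage was 58.7 and 69.1 untreated and 112.5 and 89.8 after dTAG13, higher in both dTAG13 libraries. The offset fit called 1% of all genes tested lower.

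The 5 lowest ratios among the genes without overlap and with a mean of at least 8 sites in the higher group came from carriers of several kinds. Slc52a2, a riboflavin transporter, had 12 and 8 sites untreated and 3 and 2 after dTAG13, a ratio of 0.250. Slc35a2, which brings UDP-galactose into the Golgi, had 15 and 17 untreated and 3 and 6 after dTAG13, a ratio of 0.281. Slc38a3, a glutamine carrier, had 10 and 18 untreated and 5 and 3 after dTAG13. All of these groups were apart by that rule, on small numbers of sites. Slc38a9, the lysosomal arginine sensor upstream of mTORC1, had 14 and 17 untreated and 5 and 4 after dTAG13. Slc39a13, a zinc transporter of the ZIP family, had 10 and 7 untreated and 1 and 4 after dTAG13.

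A few Slc genes had more listed sites with dTAG13. Slc30a5, a zinc transporter of the secretory pathway, had 17 and 26 listed sites untreated and 35 and 39 after dTAG13, a ratio of 1.72. Its edgeR adjusted p was 0.195, and it was called higher after TMM scaling of the site counts, which centres the genes on the general difference (adjusted p = 0.0151), as were 0.374% of all genes tested. Slc2a1, the glucose transporter GLUT1, had 18 and 17 sites untreated and 20 and 31 after dTAG13. Slc25a3, the mitochondrial phosphate carrier, had 13 and 9 untreated and 19 and 17 after dTAG13. The genes named here were chosen among the 7 Slc genes (4.40%) where both dTAG13 libraries were the higher ones. Over all genes the share was 4.53%. Slc25a33, a pyrimidine nucleotide carrier, had 13 and 10 untreated and 16 and 19 after dTAG13, and Slc25a11, the oxoglutarate carrier, had 24 and 17 untreated and 26 and 28 after dTAG13.

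The ratio of sites moved with coverage in Slc genes and in other genes. In the 27 Slc genes with a mean coverage from 30 to 60 the ratio of listed sites was 0.635, and in the 94 genes from 60 to 120 it was 0.612. In the 21 genes from 120 to 240 it was 0.709, and in the 17 genes at 240 or more it was 0.944. The other genes gave 0.645, 0.639, 0.729 and 0.924 in the same ranges, so the best covered genes of either kind had ratios nearest to 1.

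**Figure D2:**
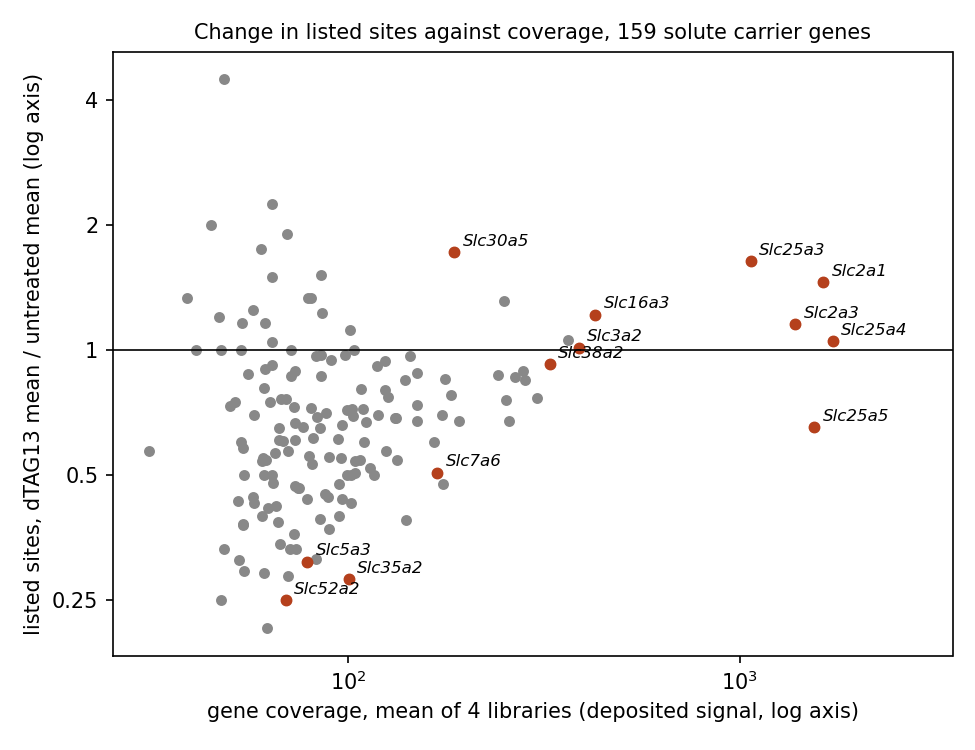
Ratio of mean listed sites with dTAG13 to mean listed sites without it (y axis, log scale) against the mean gene coverage of the 4 libraries (x axis, deposited signal, log scale); each point is 1 of 159 solute carrier genes, named genes are in red and the line marks a ratio of 1. Most genes with coverage under 240 lie below the line, and the best covered genes lie around it.

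The Slc genes differed widely in listed sites relative to coverage. Those with a mean coverage of 120 to 240 had a mean of 38.6 and 40.3 listed sites untreated. At 240 or more the means were 33.2 and 31.2, so listed sites did not rise further with coverage. A low density in the best covered genes is thus not by itself a trait of those genes. Of the 5 genes with a mean coverage of 1000 or more, Slc25a4 had the fewest sites per 100 units of coverage, at 0.397 and 0.642 untreated and 1.22 and 0.203 after dTAG13. It and Slc25a5 are adenine nucleotide translocators, which exchange ATP for ADP across the inner mitochondrial membrane. Slc25a5 had 1.29 and 1.07 untreated and 1.90 and 0.882 after dTAG13. In both carriers the dTAG13 libraries spanned the untreated ones. Slc2a1 had 0.979 and 0.822 untreated and 1.90 and 1.97 after dTAG13, where both were higher. At the other end, Slc7a1, a cationic amino acid transporter, had 45.9 and 72.9 untreated and 33.8 and 21.1 after dTAG13, both lower. Slc30a4, a zinc transporter of intracellular vesicles, had 56.1 and 55.7 untreated and 30.1 and 27.9 after dTAG13. Over the family, 84 genes (52.8%) had a lower density in both dTAG13 libraries and 9 (5.66%) a higher one, where all genes had 37.7% and 10.5%.

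Grouped by transported substrate, each class listed fewer sites in total with dTAG13. The 33 amino acid carriers listed 771 and 792 sites untreated and 520 and 512 after dTAG13, and 18 of the 33 (54.5%) were lower with no overlap and 0 higher, where all genes had 44.6% lower and 4.53% higher. The 21 metal carriers listed 476 and 562 untreated and 344 and 396 after dTAG13, with 12 (57.1%) lower and 1 higher. The 33 mitochondrial carriers listed 588 and 606 untreated and 430 and 484 after dTAG13, with 13 (39.4%) lower and 3 higher. In these large classes both dTAG13 totals lay below both untreated totals. The 15 carriers of vitamins, choline, nucleosides and organic ions listed 275 and 263 untreated and 154 and 173 after dTAG13, with 10 (66.7%) lower and 0 higher. The 14 proton and bicarbonate exchangers listed 206 and 214 untreated and 126 and 146 after dTAG13, with 7 lower and 1 higher of the 14. These smaller classes were lower without overlap too. The 11 carriers of anions and fatty acids listed 219 and 244 untreated and 135 and 135 after dTAG13, with 7 (63.6%) lower and 0 higher. Of these lower shares only that of the mitochondrial carriers lay below that of all genes. Those of the sugar (10%) and monocarboxylate carriers (20%), described next, also lay below it. The classes are small, and the differences were not tested. The 3 sodium-calcium exchangers, with the smallest class ratio, listed 39 and 43 sites untreated and 17 and 24 after dTAG13.

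The sugar and monocarboxylate carriers had the highest class ratios, both 0.877. The 10 sugar carriers listed 141 and 144 sites untreated and 130 and 120 after dTAG13, and 1 of the 10 was lower with no overlap and 1 higher, against 44.6% and 4.53% of all genes. Relative to coverage they had 3.62 and 3.37 sites per 100 units untreated and 5.04 and 3.19 after dTAG13, and these groups overlapped. These values rest on Slc2a1 and Slc2a3, glucose transporters of high coverage. Without them, a choice made after the values were seen, the other 8 listed 87 and 93 sites untreated and 62 and 56 after dTAG13, a ratio of 0.656. Their density was then 16.6 and 16.0 per 100 units untreated and 11.1 and 7.47 after dTAG13, with no overlap and a ratio of 0.568, against 1.18 for all 10. The 5 monocarboxylate carriers listed 108 and 119 untreated and 87 and 112 after dTAG13, and overlapped.

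The cation-chloride cotransporters, the nucleotide sugar carriers and the genes of other families also listed fewer sites with dTAG13, without overlap. The 6 cation-chloride cotransporters listed 107 and 125 sites untreated and 75 and 80 after dTAG13. Their best covered gene, Slc12a2, the sodium-potassium-chloride cotransporter NKCC1, had 36 and 47 untreated and 22 and 20 after dTAG13. Both the class and this gene were lower in each dTAG13 library. The 5 nucleotide sugar carriers listed 109 and 111 untreated and 77 and 78 after dTAG13. Their best covered gene, Slc35a1, which carries CMP-sialic acid into the Golgi, had 36 and 34 untreated and 36 and 25 after dTAG13 and overlapped. The 3 genes of other families listed 36 and 42 untreated and 20 and 35 after dTAG13, among them the peptide transporter Slc15a2 with 12 and 14 against 6 and 7.

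The best covered genes of the remaining classes differed among themselves. Slc20a2, a sodium-dependent phosphate transporter, had 50 and 55 listed sites untreated and 29 and 21 after dTAG13, with no overlap. Slc8a3, a sodium-calcium exchanger, had 19 and 19 untreated and 6 and 7 after dTAG13, also with no overlap. Slc22a17, a receptor for lipocalin-2, had 33 and 29 untreated and 17 and 25 after dTAG13. In these genes the dTAG13 libraries were the lower ones, but no edgeR adjusted p was below 0.160. Slc3a2, the heavy chain that partners Slc7a5 and Slc7a6, had 40 and 29 untreated and 42 and 28 after dTAG13. Slc16a3, the lactate exporter MCT4, had 27 and 28 untreated and 29 and 38 after dTAG13, both higher. Slc30a9, a zinc transporter, had 40 and 55 untreated and 29 and 44 after dTAG13, and the groups overlapped.

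**Figure D3:**
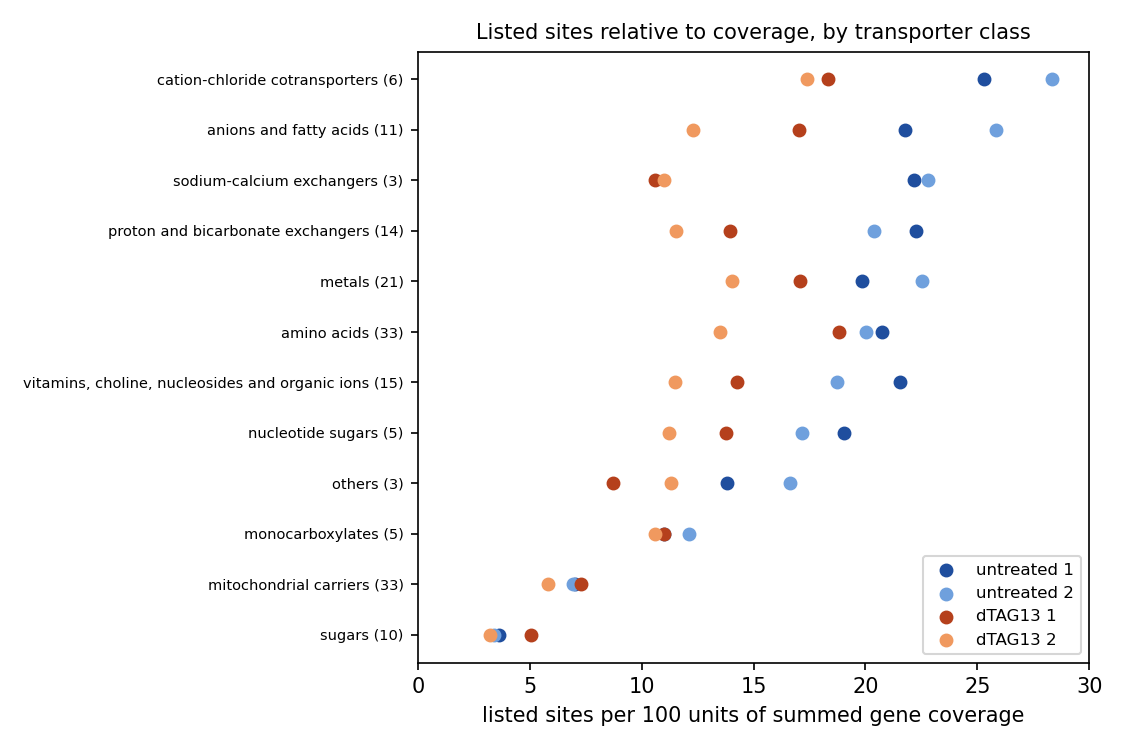
Listed sites per 100 units of summed gene coverage (x axis) in 12 classes of solute carrier genes (y axis, number of genes in brackets); each point is 1 library, blue for untreated and orange to red for dTAG13. The sodium-calcium exchangers lie at 22.2 and 22.8 untreated and at 10.6 and 10.99 after dTAG13, while the points of the sugar and mitochondrial carriers overlap.

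Few sites recurred between libraries. There were 9796 different Slc sites, of which 8961 (91.5%) appeared in a single table, 736 in 2 tables, 79 in 3 and 20 in every table. Both untreated tables held 326 common sites, both dTAG13 tables held 143, and the 4 mixed pairs held 141 to 165. The overlap was greatest within the untreated pair, and that of the dTAG13 pair lay within the range of the mixed pairs. The 326 sites made up 10.6% and 9.98% of the untreated libraries' Slc sites, and the 143 made up 6.76% and 6.23% of the dTAG13 libraries' Slc sites.

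The sites of high level set the untreated pair apart. Of its 326 shared sites, 186 had a mean level of 10 to 40%, 102 of 40 to 90% and 38 of 90% or more. The dTAG13 pair had 117, 26 and 0 in these ranges, and the mixed pairs had 2 to 8 at 90% or more. Over all genes 2.03% of the 11156 sites of the dTAG13 pair and 7.99% of the 25086 sites of the untreated pair were at 90% or more. Single libraries differed less, and they listed 579 and 537 Slc sites at 90% or more untreated and 410 and 495 after dTAG13. The median level of all listed Slc sites was 31.6% and 29.5% untreated and 29.2% and 30.2% after dTAG13.

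**Figure D4:**
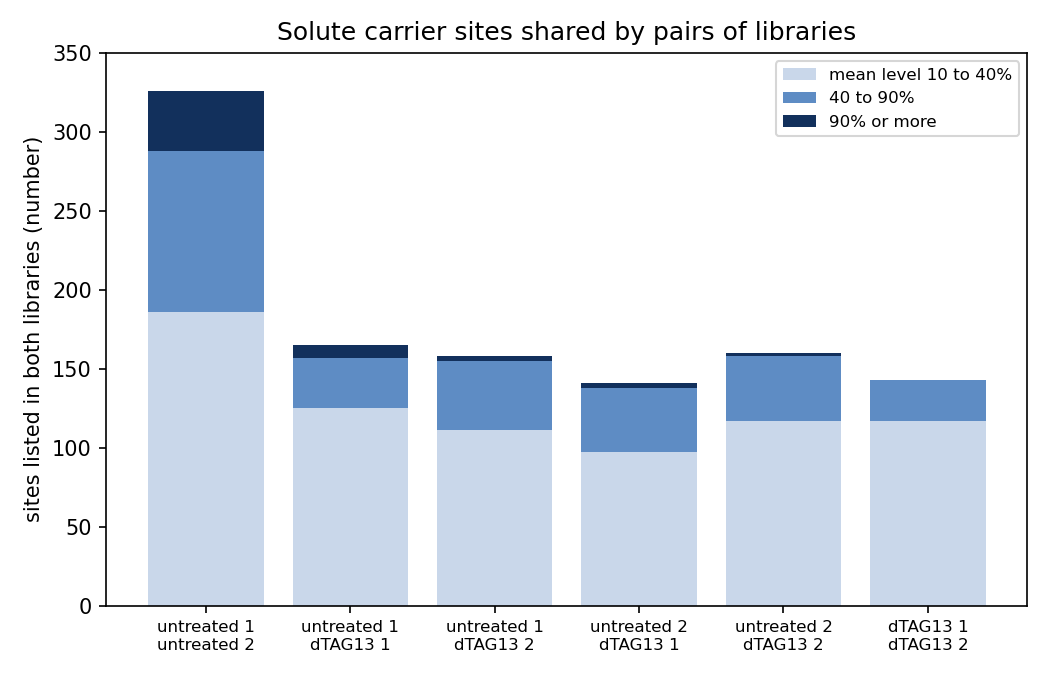
Number of solute carrier sites listed in both libraries of each of the 6 pairs (y axis), stacked by mean level over the pair from light (10 to 40%) to dark (90% or more). The untreated pair shares 326 sites, 38 of them at 90% or more, and the dTAG13 pair shares 143, of which 0 reach 90% (2.03% over all genes).

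Of the 326 sites shared by the untreated pair, 256 (78.5%), in 94 genes, were listed in neither dTAG13 library, 50 in 1 and 20 in both. In all genes 80.0% were listed in neither. The reverse was also common: of the 143 Slc sites shared by the dTAG13 pair, 94 (65.7%), in 51 genes, were listed in neither untreated library, 29 in 1 and 20 in both. Over all genes 68.8% of such sites were in neither. Absence from the other pair is thus frequent in either direction. Slc25a24, a mitochondrial ATP-Mg/phosphate carrier, had a site (chromosome 3, position 109074784, plus) at 98.4% and 70.1% on 64 and 67 reads after dTAG13 that neither untreated table listed. This site was chosen after its values were seen. Among the 102 Slc sites at 40 to 90%, 8.82% were listed in any dTAG13 library (Wilson 95% interval 4.71 to 15.9), against 12.7% over all genes. Among the 186 at 10 to 40% it was 26.9% (21.0 to 33.7), against 23.4% over all genes. Among the 38 at 90% or more it was 28.9% (11 sites, interval 17.003 to 44.8), against 19.5%. The Slc share was thus the lower one only at 40 to 90%. Each all-gene share lay within the Slc interval. These intervals cover counting error only.

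Recovery in the other untreated library gave the background for such absences. Untreated replicate 1 had 2238 Slc sites on 50 or more reads, of which 270 (12.1%) were listed in untreated replicate 2, 147 (6.57%) in dTAG13 replicate 1 and 140 (6.26%) in dTAG13 replicate 2. The mean of the dTAG13 values over the untreated one was 0.531, against 0.560 over all genes. For the sites at 10 to 40% this ratio was 0.644, for those at 40 to 90% 0.254 and for those at 90% or more 0.426. All genes gave 0.664, 0.305 and 0.278 in the same ranges, so the Slc value was the lower one below 90% and the higher one at 90% or more, where it rests on 27, 11 and 12 recovered sites. Among the 140 shared untreated sites at 40% or more, 128 were unlisted in dTAG13 replicate 1 and 127 in dTAG13 replicate 2. Of these, 35 and 39 had another listed site with at least 50 reads within 50 bases, which shows that reads reached the neighbourhood. For the other unlisted sites coverage in the dTAG13 libraries is not known here.

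Of the 159 Slc genes, 98 had a site shared by the untreated pair, 71 had one at 40% or more and 28 had one at 90% or more. Slc1a4, a carrier of alanine, serine and cysteine, had 7 shared sites at 40% or more, and 0 of its 7 were listed with dTAG13. Slc38a7, a lysosomal glutamine carrier, had 5 shared sites, 3 of them at 90% or more, and 0 were listed with dTAG13. Slc7a6 had 9, of them 5 at 40% or more, and 1 of the 9 was listed with dTAG13. Slc35a4, of the nucleotide sugar transporter family, had 6, of which 3 were listed with dTAG13. Slc38a2 had 13 and Slc16a1 had 12, of which 4 and 5 were listed with dTAG13. Slc8a3 had 3, all at 90% or more, of which 1 was listed with dTAG13. These are examples picked after their counts were seen.

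The sites of highest level in the untreated pair, taking 1 per gene and 50 or more reads in each library, had 80.5% to 100% A in every untreated value. Coordinates are those of the tables. The sites were chosen by their untreated level, so lower values or absence in the dTAG13 libraries are in part expected from that choice alone. In Slc16a1 the adenosine at chromosome 3, position 104563134 (plus strand), was at 100% and 99.7% on 92 and 348 reads without dTAG13 and was listed in neither dTAG13 library. A site 12 bases away was listed in dTAG13 replicate 2 with 385 reads. In Slc30a1, the zinc exporter of the plasma membrane, chromosome 1, position 191641923 (plus), was at 98.2% and 98.4% without dTAG13 and listed in neither dTAG13 library, where a site 5 bases away had 157 reads in dTAG13 replicate 2. In Slc30a9, chromosome 5, position 67512051 (plus), was at 92.2% and 90.9% without dTAG13 and listed in neither dTAG13 library, with sites 18 and 12 bases away at 392 and 301 reads. Both dTAG13 tables also lacked a site of Slc1a4 at chromosome 11, position 20282593 (minus), that was at 99.4% and 80.5% without dTAG13.

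At other such sites 1 dTAG13 library listed the position at a lower level. In Slc38a2, chromosome 15, position 96585931 (minus), was at 94.8% and 99.1% on 346 and 739 reads without dTAG13 and at 10.3% on 252 reads in dTAG13 replicate 2. In Slc8a3, chromosome 12, position 81246496 (minus), was at 100% and 98.2% without dTAG13 and at 27.1% in dTAG13 replicate 2. In Slc16a3, chromosome 11, position 120847548 (plus), was at 84.9% and 98.8% without dTAG13 and at 21.4% in dTAG13 replicate 1. Each of these listed dTAG13 values lay far below both untreated values, at sites chosen because those were high. In Slc33a1, which carries acetyl-CoA into the endoplasmic reticulum, chromosome 3, position 63871399 (minus), was at 80.8% and 99.7% without dTAG13 and at 41.9% in dTAG13 replicate 1. In Slc38a10, an amino acid transporter of the same family as Slc38a2, chromosome 11, position 119995725 (minus), was at 99.0% and 98.1% without dTAG13 and at 52.4% in dTAG13 replicate 1.

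Levels could be compared directly at the 20 Slc sites, in 16 genes, present in every table on 20 or more reads each. The quasi-binomial test, with its dispersion moderated over sites by limma, called 0 of the 20 at an adjusted p below 0.05. It called 2.28% of the 2321 sites tested, 2.2% lower and 0.0862% higher, and 4.11% of the 1193 tested sites inside genes were called lower. At an unadjusted p under 0.05, 3 of the 20 were lower and 3 higher, where 5.95% of all sites tested were lower and 3.4% higher.

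The largest differences in level were at sites of high level without dTAG13. In Slc35a4, chromosome 18, position 36815866 (plus), was at 98.5% and 99.6% on 68 and 236 reads without dTAG13 and at 35.1% and 14.4% on 305 and 278 reads with it. The groups were far apart, with a mean difference of -74.3 percentage points and an adjusted p of 0.0599 in the quasi-binomial fit of limma-moderated dispersions. A second Slc35a4 site 7 bases away, position 36815873, was at 100% and 99.7% untreated and at 84.8% and 31.8% after dTAG13. Sites this close share reads. In Slc16a1, chromosome 3, position 104560626 (plus), was at 99.2% and 99.2% untreated and at 16.6% and 47.5% after dTAG13 (difference -67.1 points, adjusted p = 0.117 in the same fit). In Slc37a3, of the sugar phosphate exchanger family, chromosome 6, position 39313498 (minus), was at 97.9% and 76.8% untreated and at 37.9% and 29.2% after dTAG13 (difference -53.8 points, adjusted p = 0.187 in the same fit). The first Slc35a4 site and the Slc16a1 site were called lower by limma on log2 odds (adjusted p = 0.0481 and 0.0408) and by edgeR on A and G reads (adjusted p = 0.0242 and 0.0363). These fits called 1.77% and 2.15% of all sites tested lower.

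At sites of lower level the differences were smaller, and several were upward. A site was tested only where every library listed it at 10% or more. Sites near that limit could thus hardly fall, and sites near 100% could hardly rise. In Slc25a22, the mitochondrial glutamate carrier, chromosome 7, position 141009875 (minus), was at 10.9% and 13.5% untreated and at 20.8% and 22.8% after dTAG13. In Slc25a1, the mitochondrial citrate carrier, chromosome 16, position 17745881 (minus), was at 29.5% and 24.8% untreated and at 40.0% and 39.5% after dTAG13. In Slc44a1, a choline transporter, chromosome 4, position 53566208 (plus), was at 11.1% and 14.3% untreated and at 21.1% and 20.8% after dTAG13. None of these passed the adjusted threshold in the quasi-binomial fit, whose adjusted p was 0.200 for Slc25a22, 0.401 for Slc25a1 and 0.494 for Slc44a1. In Slc31a1, chromosome 4, position 62307912 (plus) was at 24.8% and 24.1% untreated and at 15.6% and 18.2% after dTAG13. In Slc25a36 the site at chromosome 9, position 96961126 (minus), was at 95.5% and 100% untreated and at 100% and 42.0% after dTAG13, so its groups overlapped. The other sites tested, in Slc25a5, Slc25a10, Slc25a11, Slc25a39, Slc25a46, Slc38a1, Slc39a1 and Slc4a2 and a second one each in Slc25a22, Slc31a1 and Slc44a1, lay between 10.1% and 39.5% in every library.

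**Figure D5:**
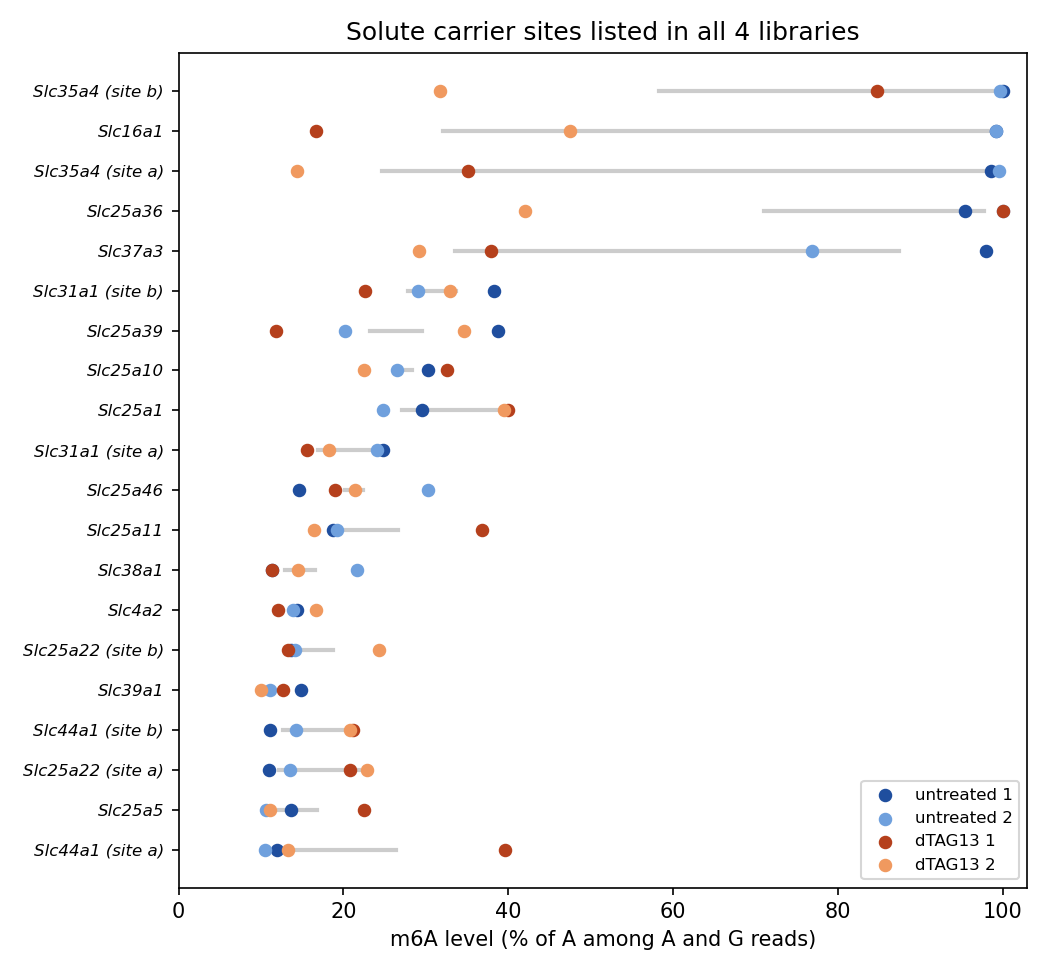
Level in percent of A among A and G reads (x axis) at the 20 solute carrier sites listed in all 4 libraries (y axis, letters a and b mark different sites of a gene); each point is 1 library and the grey line joins the group means. The dTAG13 points of Slc35a4 site a (35.1 and 14.4%), Slc16a1 (16.6 and 47.5%) and Slc37a3 (37.9 and 29.2%) lie to the left of their untreated points.

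The level pooled over all listed sites of a gene was not lower with dTAG13 in the family. Its median over Slc genes was 40.3% and 39.3% untreated and 42.2% and 40.9% after dTAG13. Over all genes it was 31.9% and 30.6% untreated and 34.6% and 33.3% after dTAG13, so Slc genes lay higher in every library and the dTAG13 libraries lay higher in both sets. This level covers only listed sites, and different sites are listed in each library. The limma fit on log2 odds called 0 of 128 Slc genes tested and 0% of 9712 genes. At an unadjusted p under 0.05, 5 Slc genes were lower and 8 higher, where 3.29% of all genes tested were lower and 6.46% higher.

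Well covered carriers were among those with lower pooled levels. Slc2a1 was at 22.9% and 21.9% untreated and at 13.1% and 14.5% after dTAG13, and Slc25a4 was at 31.9% and 24.3% untreated and at 13.1% and 11.96% after dTAG13. The groups did not overlap in either gene. Slc38a3 was at 33.5% and 32.2% untreated and at 80.1% and 76.1% after dTAG13, over 5 and 3 listed sites. It had the smallest unadjusted limma p of the family, with an adjusted p of 0.494 that Slc2a1 and Slc25a4 shared. Slc5a3, which listed fewer sites, was at 35.5% and 41.1% untreated and at 57.9% and 50.0% after dTAG13.

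Coverage of single Slc genes was not called changed. The limma fit on log2 coverage, centred on the median gene, called 0 of 159 Slc genes and 0% of 12520 genes, and at an unadjusted p under 0.05, 6 Slc genes were lower and 9 higher, where 8.34% of all genes were lower and 4.4% higher. Both dTAG13 libraries lay below both untreated ones in uncentred coverage in 28 Slc genes (17.6%, against 28.1% of all genes) and above in 21 (13.2%, against 10.1%). Slc38a11, a member of the amino acid transporter family Slc38, had a coverage of 20.2 and 26.3 untreated and 80.9 and 64.5 after dTAG13. Its centred log2 difference of 1.73 ± 0.31 (SE) had a limma adjusted p of 0.363, and without centring it was called higher (adjusted p = 0.0422), as were 0.0479% of all genes. It had 1 and 1 listed sites untreated and 1 and 8 after dTAG13. Slc25a5 had a coverage of 1940 and 1955 untreated and 947 and 1361 after dTAG13, and its centred log2 difference was -0.70 ± 0.20 (SE, limma adjusted p = 0.363).

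Other transport genes were counted beside the carriers. Of 22 genes on a related list (carrier partners, the sodium pump, mitochondrial pyruvate carriers and ABC transporters among them), 21 were in at least 1 table and 17 in all 4. Of these, 7 had fewer sites and 1 had more sites with dTAG13 without overlap, and the median ratio was 0.786. The share of 41.2% lower stands beside 44.6% of all genes, and the median beside 0.714. The edgeR test of site number called 0 of the 17. Bsg, the chaperone of the lactate carriers, had 15 and 12 listed sites untreated and 17 and 25 after dTAG13.

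The 76 Slc genes that were not in all 4 tables had lower coverage, with a median of their highest value of 53.7 against 101.8 in the 159 genes. Of these, 36 were in 1 table, 17 in 2 and 23 in 3. Only 4 were in both untreated tables and neither dTAG13 table, and 5 were in both dTAG13 tables and neither untreated table.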

How the data were processed

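GLORI site tables of 2 untreated and 2 dTAG13 libraries were used, grouped by the sample titles. The authors deposited 1 table of called sites per library, with raw counts of A and G reads and of A reads, the fraction of A (the level), the conversion fraction of the gene, a gene coverage signal that is not scaled to depth, and a p-value with its adjusted value. In every table the largest adjusted p-value the authors list was 0.00401. The submitters' processing notes name mm10, but contig names belong to GRCm39 and 8.81% of 9796 Slc sites lay within GRCm38 gene intervals. Coordinates are therefore given as listed, with the build unsettled and no exon, UTR or sequence assigned. Aligner and caller are not given in the sources used here.

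Site numbers per gene were tested with edgeR 4.0.16 (quasi-likelihood, no scaling, genes with a mean of at least 3 sites), coverage (log2, centred on the median gene) and the log2 odds of the pooled level (0.5 added to A and G reads, at least 3 sites in each library) with limma 3.58.1 in R 4.3.3, and site levels with a quasi-binomial model moderated by squeezeVar. DESeq2 1.42.0 was an alternative. Fits ran on all genes or sites with Benjamini-Hochberg adjustment at 0.05. Those of site number, coverage and site level, but not that of pooled level, were also run on simulated data with large planted changes. Those runs do not show how well smaller changes are detected. Single values had exact two-sided permutation tests. Shares have Wilson 95% intervals, and since reads may include PCR duplicates these cover counting error only. All 159 names were RefSeq symbols. The members, classes and lists were chosen with earlier results of these data known. Text names the 10 genes with the most sites, the best covered gene of each class, the 5 lowest and 5 highest ratios without overlap, up to 10 genes called per fit, up to 20 sites of the level fit, and the 10 sites of highest untreated level, 1 per gene. Other genes named were chosen after their values were seen. Replicate numbers did not pair the libraries.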

Additional observations from a re-analysis of the deposited data

How the results depend on the processing

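The ratio of listed Slc sites of dTAG13 to untreated kept its direction in each alternative run: 0.712 with at least 50 reads per site, 0.689 at a level of at least 20%, 0.723 at an adjusted p of the authors of at most 1e-06, 0.679 in coverage-matched genes, 0.806 per unit of coverage, and 0.667 to 0.724 with 1 library left out. Calls changed with the test, and the cause was not tested: for the number of sites, 1 Slc gene was called after TMM scaling, 2 with coverage as an offset and 25 with edgeR's likelihood ratio test (added after seeing the data), against 0. For site levels, limma on log2 odds and edgeR on reads each called 2 sites and Fisher's exact test on pooled replicates, which ignores the spread between replicates, 12 of 20 (6 lower and 6 higher), against 0; that test called 12.8% of all 2321 sites lower and 10.1% higher. For coverage, 1 gene was called without centring, against 0. Leaving out 1 library leaves a group with a single library, so calls from those fits are not given. The median log2 fold change in site number of the tested Slc genes was then -0.708 to -0.516. Over all genes tested it was -0.611 to -0.426. The recovery ratio of 0.531 moved to 0.506 with at least 20 reads, 0.591 with at least 200 reads, 0.304 for sites at 50% or more, 0.482 with untreated replicate 2 as reference and 0.634 for sites with another listed site nearby (added after seeing the data). Slc25a11, whose pooled level was lower with dTAG13 on log2 odds (-0.91), was higher (0.045) by the mean of site levels, with neither called by limma (adjusted p = 0.786 for the latter).

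Same-numbered libraries did not deviate together (correlation of deviations 0.0023 for coverage and -0.0061 for site number). With the replicate block, 0 Slc genes or sites were called, and 0 of all genes or sites tested. The smallest adjusted p of an Slc gene or site was 0.252 for site number (edgeR) and 0.117 for site level (quasi-binomial test). For coverage it was 0.410 and for pooled level 0.601 (both limma). With 2 libraries a group and few sites per gene, small differences were not detectable, and large ones could also be missed. Slc5a3, with a log2 fold change in site number of -1.68, had an edgeR adjusted p of 0.160. The lack of calls thus does not show that sites were unchanged, and 2 against 2 permutations cannot give p under 0.333.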
